A study of Mus musculus with 4 samples.

Results

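Desmosomes and the plakin proteins of the cornified envelope were followed through 9 genes: the desmosomal cadherins Dsg2 and Dsc2, the armadillo proteins Jup, Pkp1, Pkp2 and Pkp3, and the plakins Dsp, Ppl and Evpl. The genes were chosen with earlier results of these data known. Their probe sets were taken by name, as those that the array's annotation gives to these genes. Each gene had 1 probe set, so 9 of 35556 probe sets were used, and all 9 carry 1 gene symbol, as do 21789 of the 23410 probe sets with any symbol.

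RNA of 4 clonal cell lines was hybridized to Affymetrix mouse gene arrays, with 1 array per line. The epithelial lines E1 and E2 (E) were set against the mesenchymal-like lines M1 and M2 (M). All 4 were cloned by limiting dilution from 1 spontaneous mammary tumor of an FVB Tg MMTV/neu female, a mouse of the line FVB/N Tg (MMTV/neu) 202MUL/J in which the mammary tumor virus promoter drives rat neu, so that E and M share the transgene and the strain. Each line is a single clone, and the 2 clones of a type are the replicates here. E cells were sorted as high in CD24 and neu and grown in RPMI with fetal bovine serum. M cells were sorted as low in both and grown in MEGM with less serum and with pituitary extract, epidermal growth factor, insulin and hydrocortisone. Cell type and medium therefore cannot be told apart in any comparison of E with M. No source says that a line was grown more than once. A p-value between E and M therefore reflects how far clones of a type lie apart.

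Desmosomes are spot-like junctions that tie the keratin filaments of neighboring epithelial cells together and give the sheet its mechanical strength. Desmogleins and desmocollins bridge the gap between the cells. Plakoglobin (Jup) and the plakophilins bind their tails inside the cell, and desmoplakin (Dsp) links this plaque to the filaments. Periplakin (Ppl) and envoplakin (Evpl) are plakins best known from stratified epithelia, where they form part of the scaffold on which the cornified envelope is built. Loss of desmosomes is a textbook feature of epithelial to mesenchymal transition.

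The values are normalized log2 levels, on which a step of 1 is a doubling. The median level was between 6.75 and 6.85 in the 4 arrays. Because the background of the arrays is not known, a fold below is a ratio of listed values, and near background it need not equal the ratio of the mRNAs. In RNA of whole cultures, fewer cells that express a gene and less RNA per cell cannot be told apart. Of 7 epithelial markers, Cdh1, Epcam and Cldn7 were higher in E by limma and 0 were lower, while Krt8 and Krt18 were high in all 4 lines, at 13.12 or above, and Krt19 was at or below 6.48 in each. Cldn4, at 8.72 and 11.28 in E1 and E2 against 6.83 and 7.22 in M1 and M2, was not called. Of 6 mesenchymal markers, Zeb1, Twist1 and Cdh2 were lower in E, while Vim, Fn1 and Sparc were not called. Fn1 was at 13.57 and 12.74 in E1 and E2, against 13.36 and 13.27 in M1 and M2. Vim was at 12.79 and 13.10 in E1 and E2, against 13.72 and 13.82 in M1 and M2. The E lines thus carried a high vimentin signal and the M lines a high signal of Krt8 and Krt18. This does not extend to Krt19 or to Krt7, which was lower in M (below).

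Between the types, the 9 genes did not move as a block. limma called 5 of them higher in E (Dsg2, Dsp, Pkp3, Jup and Pkp2) and 1 lower (Ppl), and 3 were not called (Dsc2, Pkp1 and Evpl), at an adjusted p under 0.05. Over all 23410 probe sets tested, 2.02% were called higher in E and 1.72% lower. The median log2 difference of the 9 genes was 1.91, against -0.00 over all probe sets. E1 and E2 lay above both M lines for 7 of the 9 genes and below both for 1, where 23.8% and 24.2% of all probe sets did so. Evpl was the gene in which the types overlapped. The calls depended on having both E lines. Without E1 or without E2 they were lost over the whole array, so this loss is not particular to the 9 genes. The median log2 difference of the 9 genes was then 1.89 and 1.93. Without M1, 5 of the 9 genes were called, Pkp2 being lost, and 7.52% of all probe sets. Without M2, 6 of the 9 genes were called and 8.03% of all probe sets. Each of these fits to 3 arrays has 1 residual degree of freedom.

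**Figure D1:**
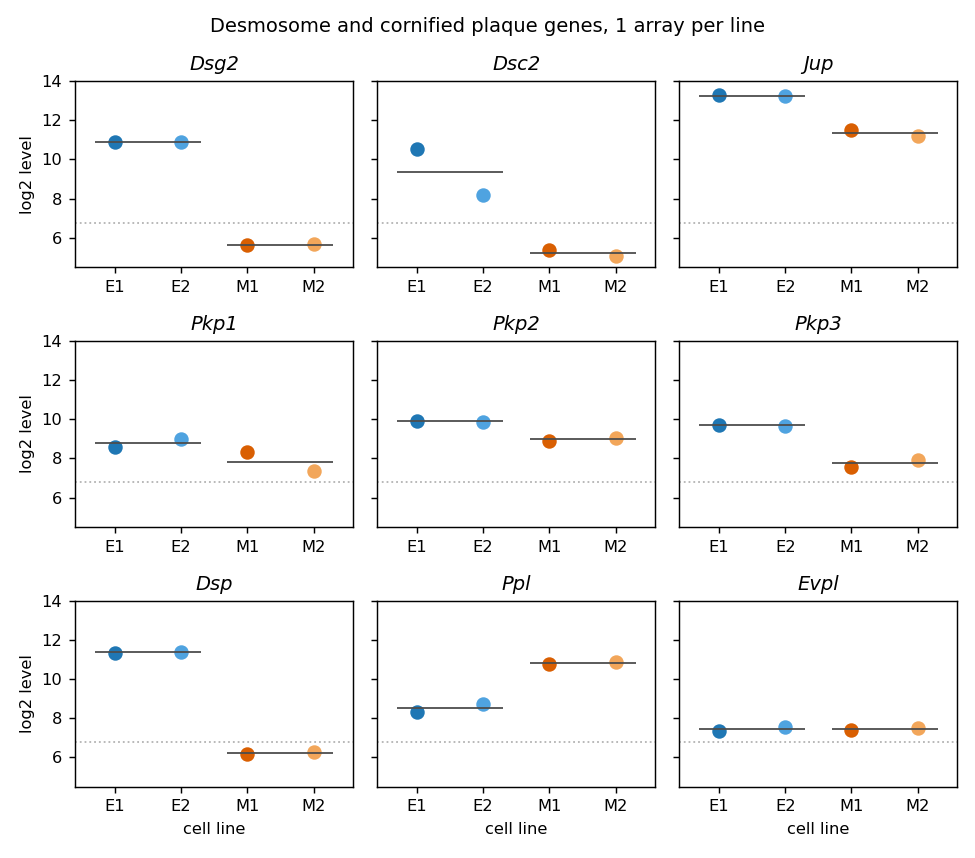
Log2 levels of the 9 genes in E1, E2, M1 and M2, 1 point per array, with a bar at the mean of each type and a dotted line at the median of all values, 6.78. Dsg2 and Dsp are above this line in E1 and E2 and below it in M1 and M2. Ppl is above it throughout and higher in M1 and M2, and Evpl is between 7.35 and 7.55 throughout.

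Desmoglein 2 (Dsg2) is the desmoglein found in nearly all tissues with desmosomes, simple epithelia included. It was at 10.87 and 10.89 in E1 and E2, against 5.61 and 5.71 in M1 and M2. The types were clearly apart and the clones of a type close together. Its mean was 10.88 ± 0.01 in E and 5.66 ± 0.07 in M (SD, n = 2 each), a log2 difference of 5.22 (standard error 0.11, limma adjusted p = 0.00252), or 37.3-fold. Ordered by this difference from the highest, Dsg2 had rank 36 among all probe sets with a symbol, and Dsp had rank 43.

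Desmocollin 2 (Dsc2), the desmocollin that pairs with Dsg2 in simple epithelia, was uneven between the epithelial clones. It was at 10.51 in E1 and 8.17 in E2, against 5.37 and 5.06 in M1 and M2. Both E lines were above both M lines, by at least 2.81 on the log2 scale, yet E1 was 5.06-fold above E2. The mean was 9.34 ± 1.65 in E and 5.21 ± 0.22 in M (SD, n = 2 each). The log2 difference of 4.13 had a standard error of 0.84 and a 95% interval from 1.78 to 6.48, and it did not pass over all probe sets (limma adjusted p = 0.109). Against the M lines, the difference was 2.96 with E2 alone and 5.30 with E1 alone. M1 and M2 were both below the median of all values for Dsc2, Dsg2 and Dsp, and for none of the other 6 genes.

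Dsg2 and Dsc2 belong to a single cluster of 9 desmosomal cadherin genes, with no other protein-coding gene between the first and the last in the RefSeq annotation of GRCm38.p6. Of the 9, 7 have a probe set listed under 1 symbol. Of these, Dsg2 and Dsg3 were called between the types, Dsc2 did not pass, and the other 4 were low in every line. Desmoglein 3 (Dsg3), a cadherin of stratified epithelia and a target of autoantibodies in pemphigus, was at 9.06 and 9.08 in E1 and E2, against 5.16 and 5.07 in M1 and M2, a log2 difference of 3.95 (standard error 0.11, limma adjusted p = 0.00254). Dsg3 and Dsg2 lie next to each other at one end of the cluster, and both were called. Their neighbor Dsg4 was between 4.75 and 5.02 in all lines. Dsg1b and Dsg1c were between 4.49 and 5.36, and neither was called. Dsc3, which flanks Dsc2 at the other end, was at 5.03 and 5.20 in E1 and E2, against 6.15 and 5.15 in M1 and M2, with M1 the highest line. These 4 genes were below the median of all values in every line.

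**Figure D2:**
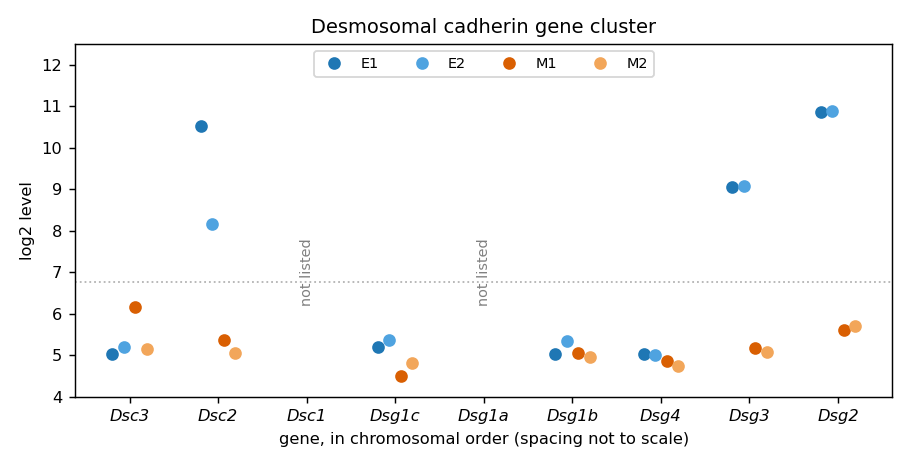
Log2 levels of the desmosomal cadherin genes in the order in which they lie on the chromosome, with 4 points per gene, 1 for each line, and a dotted line at the median of all values, 6.78. Dsc2, Dsg3 and Dsg2 are high in E1 and E2 and low in M1 and M2; the other 4 measured genes are low in every line, and 2 genes of the cluster are not listed under 1 symbol.

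Plakoglobin (Jup) is shared between desmosomes and adherens junctions, where it binds classical cadherins as its relative beta-catenin does. It was at 13.28 and 13.24 in E1 and E2, against 11.51 and 11.19 in M1 and M2. The signal stayed high in M. E exceeded M by 1.91 on the log2 scale, or 3.76-fold (standard error 0.15, limma adjusted p = 0.0157). In the M lines Jup was therefore lower than in E but well above the median of the array.

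The 3 plakophilins, armadillo proteins that cluster the cadherins at the plaque, differed in degree. Pkp3, which can bind most desmosomal cadherins, was at 9.72 and 9.68 in E1 and E2, against 7.59 and 7.90 in M1 and M2. E exceeded M by 1.96 on the log2 scale, or 3.88-fold (standard error 0.15, limma adjusted p = 0.0142). Pkp2, the plakophilin of simple epithelia and of the heart, was at 9.93 and 9.88 in E1 and E2, against 8.90 and 9.07 in M1 and M2. It was 1.90-fold higher in E, with a log2 difference of 0.92 (standard error 0.12, limma adjusted p = 0.0447). This call was close to the threshold: it was lost with quantile normalization (0.0561), with all probe sets of the file tested (0.0759), with a mean-variance trend (0.0899) and without M1 (0.0574). With all values below the median raised to it, limma did not call Pkp2 (0.138), Jup (0.13), Pkp3 (0.122) or Ppl (0.138), though none of them is below the median in any line.

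Pkp1, the plakophilin of stratified epithelia, was at 8.57 and 8.99 in E1 and E2, against 8.30 and 7.36 in M1 and M2. E and M did not overlap, but M1 was nearer to E1 than to M2. Its log2 difference of 0.95 was about the size of that of Pkp2, with a standard error of 0.38 and a 95% interval from -0.11 to 2.01 (limma adjusted p = 0.328). Pkp4, a more distant relative that is also found at adherens junctions, was at 11.13 and 11.43 in E1 and E2, against 10.88 and 10.63 in M1 and M2 (log2 difference 0.53, standard error 0.17, limma adjusted p = 0.237). All 4 plakophilins kept a level above the median of all values in every line.

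Desmoplakin (Dsp), the obligate linker between the plaque and the filaments, was at 11.34 and 11.39 in E1 and E2, against 6.19 and 6.27 in M1 and M2. Its mean was 11.37 ± 0.04 in E and 6.23 ± 0.06 in M (SD, n = 2 each). The log2 difference of 5.14 (standard error 0.11, limma adjusted p = 0.00252) is 35.2-fold. Of the 9 genes, Dsp and Dsg2 kept their calls in every fit that used all 4 arrays, the floor at the array median included.

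Periplakin (Ppl) went the other way. It was at 8.33 and 8.74 in E1 and E2, against 10.79 and 10.84 in M1 and M2. Both M lines were above both E lines by at least 2.04 on the log2 scale, and M1 and M2 were within 0.06 of each other. The mean was 8.54 ± 0.30 in E and 10.82 ± 0.04 in M (SD, n = 2 each). Ppl was 4.86-fold lower in E, by a log2 difference of -2.28 (standard error 0.18, limma adjusted p = 0.0153). Envoplakin (Evpl), with which Ppl forms heterodimers, was at 7.35 and 7.55 in E1 and E2, against 7.39 and 7.49 in M1 and M2. Its log2 difference was 0.01, with a 95% interval from -0.35 to 0.37 (limma adjusted p = 0.988). The partners thus had unlike patterns on these arrays, and a change of Evpl larger than 0.37 in either direction lay outside the interval.

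**Figure D3:**
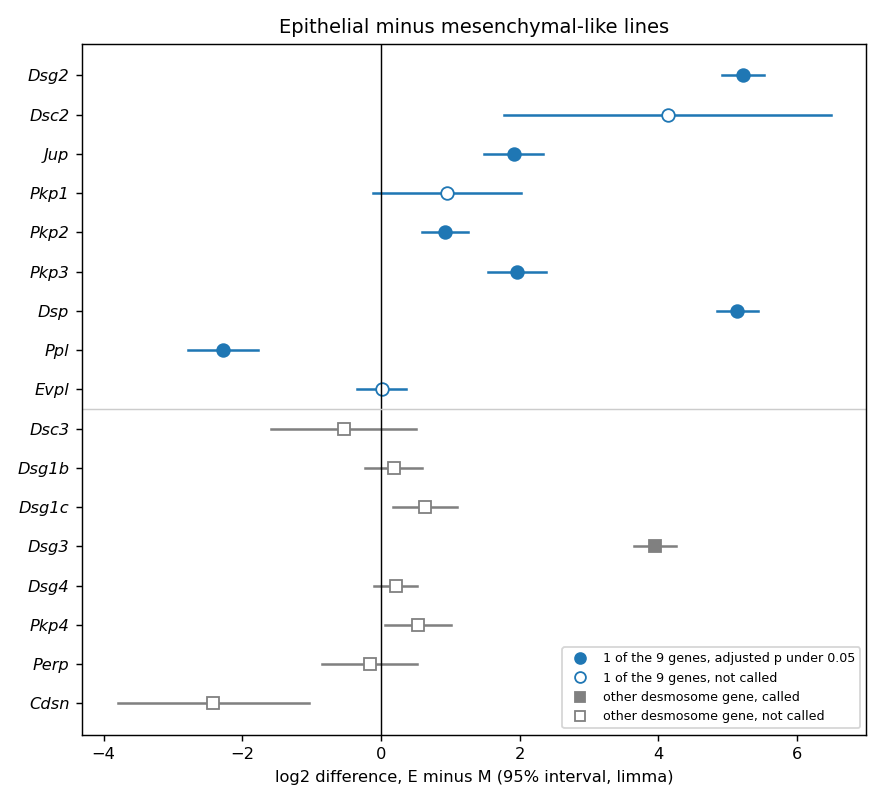
Log2 difference, E minus M, with its 95% interval from limma, for the 9 genes (circles, upper part) and for 8 other desmosome genes (squares, lower part); filled symbols have an adjusted p under 0.05. Dsg2, Dsp and Dsg3 lie between 3.95 and 5.22, Jup and Pkp3 near 1.9, and Ppl at -2.28, while Dsc2 and Cdsn have wide intervals.

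Promoter windows of 300 bases, 250 before and 50 after a gene's start, were taken from RefSeq (GRCm38.p6). The chromosome of the desmosomal cadherin cluster, with Dsg2 and Dsc2, was left out of this search. It gave windows for 2 of the 9 genes, Dsp and Jup, and both genes were called higher in E. These 2 genes carry the plaque between cadherin and filament. Bases before the outermost annotated start are printed 5′ to 3′ on the strand of the gene, with GC boxes (GGGCGG or its reverse complement CCGCCC, the core site of Sp and Klf family factors) in capitals. The Dsp stretch is chr13:38151044-38151293 on the plus strand and the Jup stretch chr11:100397840-100398040 on the minus strand.
Dsp: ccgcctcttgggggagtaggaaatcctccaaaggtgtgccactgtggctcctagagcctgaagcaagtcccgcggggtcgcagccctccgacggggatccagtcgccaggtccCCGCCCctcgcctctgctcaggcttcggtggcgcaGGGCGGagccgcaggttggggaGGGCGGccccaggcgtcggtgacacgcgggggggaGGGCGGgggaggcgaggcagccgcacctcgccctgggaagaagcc
Jup: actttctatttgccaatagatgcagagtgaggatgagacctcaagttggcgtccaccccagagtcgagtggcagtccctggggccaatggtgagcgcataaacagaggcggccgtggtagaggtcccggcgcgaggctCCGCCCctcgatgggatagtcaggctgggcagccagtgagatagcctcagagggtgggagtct
The Dsp stretch holds 4 GC boxes, and 4.1% of all 32851 RefSeq promoters have 4 or more in the 250 bases before the start. The Jup window has 2 in those 250 bases, 1 of them in the stretch above, and 16.7% of promoters have at least 2 there.

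The E-box CAGGTG (reverse complement CACCTG), the site that Zeb and Snail family repressors recognize, was searched on both strands of the same windows. It occurs once in the Dsp window, just after the start, and is shown in capitals within 30 bases (chr13:38151285-38151314, plus strand). The letters do not occur in the Jup window. Of all promoters, 20.2% hold it in 300 bases, so a match is a description and no sign of binding.
Dsp E-box: gaagaagccgacCAGGTGtggcctgggcgc

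Beside Dsg3 and Pkp4, the list of other desmosome genes held Perp and Cdsn. Perp, a p53 target needed for desmosome assembly in stratified epithelia, was at 12.31 and 12.13 in E1 and E2, against 12.68 and 12.08 in M1 and M2, with M1 and M2 on either side of the E lines. Corneodesmosin (Cdsn), an adhesive protein of the desmosomes of cornified layers, was at 9.15 and 7.88 in E1 and E2, against 11.18 and 10.68 in M1 and M2 (log2 difference -2.42, standard error 0.49, limma adjusted p = 0.109). Of the 8 measured genes of this list, 1 was called higher in E (Dsg3) and 0 lower, with a median log2 difference of 0.20.

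Of 32 genes of the cornified envelope, 30 were measured, on 31 probe sets. Among them limma called 0 between the types (874 of all 23410 probe sets were called), with a median log2 difference of -0.08, and 20 of the probe sets were below the median of all values in every line. The largest difference of this list was in involucrin (Ivl), laid down early in the envelope, at 5.74 and 5.89 in E1 and E2, against 10.33 and 8.55 in M1 and M2. Both M lines were above both E lines, M1 and M2 were 1.78 apart, and the difference of -3.63 did not pass (standard error 0.64, limma adjusted p = 0.0848). Loricrin (Lor), the main protein of the mature envelope, was between 5.31 and 5.72 in all lines, and the keratinocyte keratin Krt1 between 5.40 and 5.52. Ppl, Cdsn and Ivl were thus each at a higher level in both M lines than in both E lines, with Ppl the 1 that passed the test. Of all probe sets, 24.2% were higher in both M lines in this way. In the cornified envelope list 10 of 31 probe sets were, and 5 had both E lines above both M lines. The remaining cornified envelope genes ranged from -0.77 to 0.69 in their log2 difference.

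Among 9 hemidesmosome and plakin genes, 1 was higher in E and 1 lower. Ladinin (Lad1), a component of anchoring filaments, was at 12.05 and 12.08 in E1 and E2, against 6.91 and 6.84 in M1 and M2 (log2 difference 5.19, standard error 0.11, limma adjusted p = 0.00252). Plectin (Plec), a plakin that links filaments of several kinds to each other and to hemidesmosomes, was at 9.06 and 9.15 in E1 and E2, against 10.55 and 10.37 in M1 and M2 (log2 difference -1.35, standard error 0.13, limma adjusted p = 0.0211). Of the plakins measured, Plec and Ppl were called lower in E and Dsp was called higher, while Evpl, Dst, Macf1 and Eppk1 were not called. The median log2 difference of the list was 0.10.

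The filaments to which desmosomes attach gave 1 call among 21 keratin and other intermediate filament genes, with a median log2 difference of 0.02. Of all probe sets, 2.02% were called higher in E and 1.72% lower. Krt7, a keratin of simple epithelia, was at 12.82 and 12.72 in E1 and E2, against 8.05 and 7.04 in M1 and M2 (log2 difference 5.23, standard error 0.38, limma adjusted p = 0.0123). Nestin (Nes) was at 12.64 and 12.63 in E1 and E2, against 10.14 and 11.02 in M1 and M2 (log2 difference 2.06, limma adjusted p = 0.0687). Krt8 and Krt18, the filament pair of simple epithelia, differed by -0.13 and 0.28 between the types and were not called. Dsp was thus low in lines that had a high signal of Krt8 and Krt18, though Krt7 was lower there than in E.

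Of 22 adherens junction genes, 17 were measured, 3 were higher in E and 1 was lower, with a median log2 difference of 0.12. E-cadherin (Cdh1) was at 12.15 and 12.31 in E1 and E2, against 6.70 and 6.51 in M1 and M2 (log2 difference 5.63, standard error 0.14, limma adjusted p = 0.00252). The p120 relative Ctnnd2 and the nectin Nectin4 were also higher in E, by 3.49 and 2.86. N-cadherin (Cdh2) was lower in E, at 7.75 and 5.99 in E1 and E2, against 12.22 and 11.73 in M1 and M2 (log2 difference -5.10, standard error 0.66, limma adjusted p = 0.0451). Nectin1 was at 9.09 and 6.85 in E1 and E2, against 11.94 and 11.02 in M1 and M2, and did not pass (limma adjusted p = 0.151). In Cdh2 and Nectin1, as in Dsc2, E1 was above E2. Beta-catenin (Ctnnb1), the relative of Jup, was at 13.03 and 13.13 in E1 and E2, against 12.47 and 12.45 in M1 and M2 and was not called; it was named after its values were seen.

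Of 23 regulators of epithelial genes, 4 were higher in E and 6 lower, with a median log2 difference of 0.31. The splicing factor Esrp1 and the transcription factor Grhl2, an activator of junction genes, were higher in E by 6.06 and 4.64, together with Grhl1 and Snai3, by 1.34 and 1.28, both of which are named because of their calls. The repressor Zeb1 was at 7.49 and 6.96 in E1 and E2, against 10.99 and 10.64 in M1 and M2 (log2 difference -3.59, standard error 0.25, limma adjusted p = 0.0113). Prrx1 and Klf4 were also lower in E, by a log2 difference of -5.17 and -3.46. Snai2 was at 6.03 and 5.57 in E1 and E2, against 11.12 and 9.39 in M1 and M2 and did not pass (limma adjusted p = 0.0574). Ehf and Esrp2, with differences of 3.79 and 3.40, did not pass either (limma adjusted p = 0.0545 and 0.0511). With these regulators, the partner lists came to 109 probe sets of 108 genes, of which 10 were called higher in E and 8 lower. The shares to set beside the counts of each of these lists are 2.02% and 1.72% of all probe sets.

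**Figure D4:**
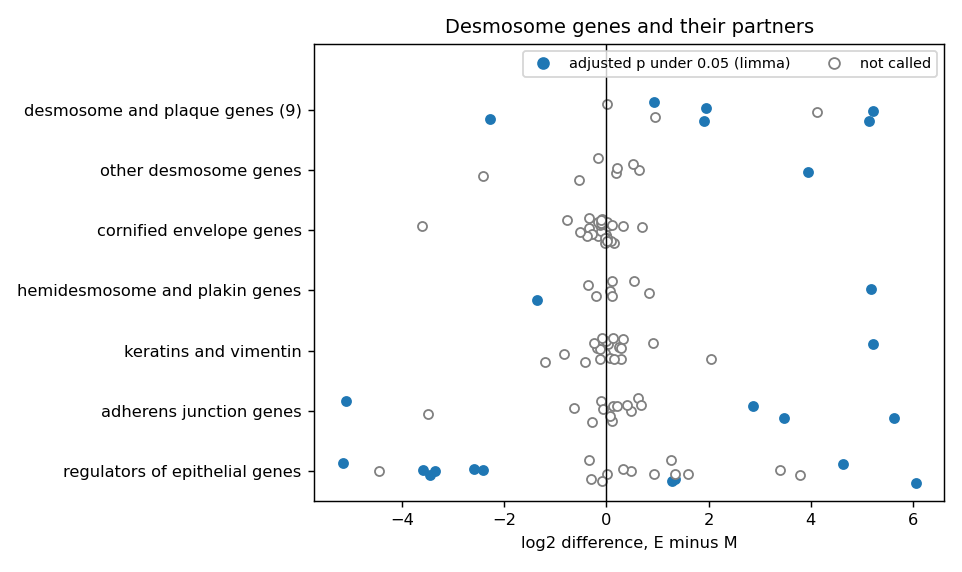
Log2 difference, E minus M, of each probe set of the 9 genes and of 6 lists of partner genes, 1 point per probe set, spread at random in height within a list; filled points have an adjusted p under 0.05 by limma. The cornified envelope list has no filled point and lies near 0 apart from Ivl at -3.63, while the adherens junction and regulator lists have filled points on both sides.

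Within a type, single arrays were compared with no test. Between the mesenchymal-like clones, 0 of the 9 genes were at least 2-fold apart, where 3.22% of all probe sets were at least 2-fold higher in M1 than in M2 and 2.64% at least 2-fold lower. Pkp1 was the farthest apart, 1.92-fold higher in M1, and Jup and Dsc2 were 1.25-fold and 1.24-fold higher. The other 6 genes were lower in M1 than in M2, by at most 0.31 on the log2 scale, the size for Pkp3. The root mean square log2 difference between M1 and M2 was 0.37 over the 9 genes and 0.57 over all probe sets.

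Between the epithelial clones, 1 of the 9 genes was at least 2-fold apart, Dsc2. Of all probe sets, 0.987% were at least 2-fold higher in E1 than in E2 and 1.25% at least 2-fold lower. The log2 difference of Dsc2 was 2.34, and 0.444% of all probe sets differed by more between these arrays in either direction. The other 8 genes differed by at most 0.43 between E1 and E2, with Pkp1 and Ppl lower in E1 than in E2 by 0.43 and 0.42. Dsg2, Dsp, Jup, Pkp2 and Pkp3, the 5 genes called higher in E, were within 0.06 between the clones. A limma call favors genes whose clones lie close, so this closeness comes in part from the selection. The root mean square log2 difference between E1 and E2 was 0.81 over the 9 genes, or 0.23 without Dsc2, and 0.39 over all probe sets.

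**Figure D5:**
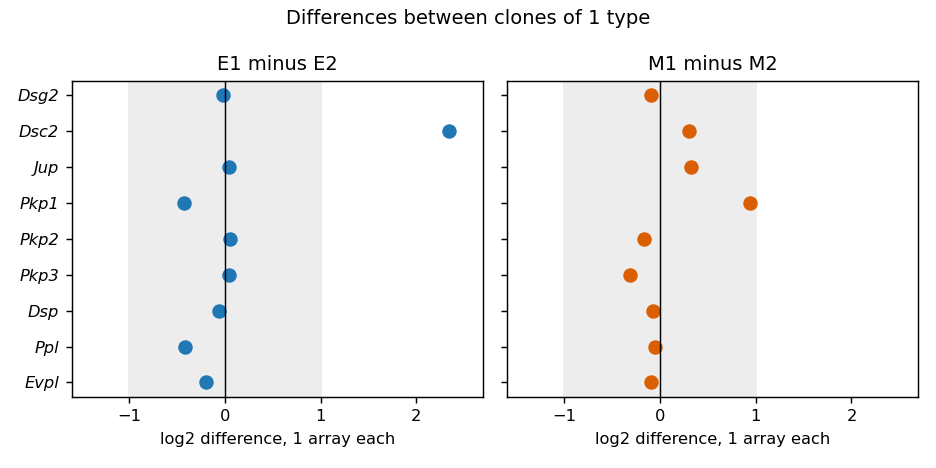
Log2 difference between the clones of a type for the 9 genes, E1 minus E2 on the left and M1 minus M2 on the right, 1 array each; the grey band marks less than 2-fold. Dsc2 at 2.34 between E1 and E2 is the 1 point outside the band, and Pkp1 at 0.94 between M1 and M2 lies near its edge.

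The study also sets M1, which formed no tumor in the mammary fat pad, against E1, E2 and M2, which did. In this comparison limma called 0 of the 9 genes, and 22 of all probe sets (0.094%) in both directions together. At an unadjusted p under 0.05 there were 0 of the 9 genes and 1640 of all probe sets. Here E1, E2 and M2 form a single group, so the spread behind a p-value includes the difference between E and M. For Dsp the standard error was 2.60, against 0.11 between E and M. A gene that separates the types could hardly be called in this comparison. The median log2 difference of the 9 genes, M1 minus the mean of the other lines, was -1.06, against -0.01 over all probe sets. Dsp was at 6.19 in M1 and 9.67 ± 2.94 in the other lines (SD, n = 3), and Ppl at 10.79 and 9.30 ± 1.35 (SD, n = 3). M2 lay beside M1 and not beside E1 and E2 for both genes. M1 was outside the range of the other lines for 4 of the 9 genes and for 52.2% of all probe sets. Without M2 the comparison becomes M1 against the epithelial lines, across type and medium, and 6 of the 9 genes and 8.03% of all probe sets were called.

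The genes whose pattern over the 4 lines was most like the mean pattern of the 9 were found by the root mean square distance of their levels, each centred on its own mean. The closest were Tmem125 (distance 0.03), Lonrf1 (0.05), F3 (0.06), Llgl2 (0.07) and Cep126 (0.09). F3 is tissue factor, the starter of blood clotting, and Llgl2 is a regulator of epithelial polarity. Llgl2 was at 9.68 in both E1 and E2, against 7.81 and 7.72 in M1 and M2, and F3 was at 11.29 and 11.21 in E1 and E2, against 9.17 and 9.16 in M1 and M2. A likeness over 4 arrays is a description, and it follows a mean that runs through unlike patterns.

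Markers of other cell types were low or mixed, and their part in the results was not tested. Of 6 fibroblast markers, 0 were called. Col1a1, Col1a2 and Col3a1 were between 7.15 and 7.73 in all lines, and Lum and Dpt were at or below 5.07. Pdgfra was at 7.78 and 7.83 in E1 and E2, against 8.71 and 10.20 in M1 and M2. The log2 of the summed linear level of this list was 9.56 and 9.74 in E1 and E2, against 9.93 and 10.77 in M1 and M2. Of 5 leukocyte markers, 0 were called and Ptprc was between 5.51 and 5.88, while Lyz2 was at 5.08 and 5.65 in E1 and E2, against 8.91 and 6.57 in M1 and M2. Their summed level was 8.07 and 8.26 in E1 and E2, against 9.50 and 8.43 in M1 and M2. Of 4 endothelial markers, 0 were called, with Pecam1 between 5.74 and 5.90. Cdh5 was at 5.99 and 6.15 in E1 and E2, against 7.58 and 6.72 in M1 and M2. The summed level of the 4 was 7.64 and 7.83 in E1 and E2, against 8.38 and 7.99 in M1 and M2. Of 8 myoepithelial and basal markers, 0 were called, and Krt5 and Krt14 were between 6.39 and 6.73 in all lines, below the median of all values. Acta2, between 6.91 and 7.36, was above this median in all lines. The summed level of the 8 was 9.50 and 9.62 in E1 and E2, against 9.64 and 9.47 in M1 and M2. Of 4 keratinocyte differentiation markers, 0 were called, and their summed level, which Ivl led in M1, was 8.28 and 8.37 in E1 and E2, against 10.58 and 9.22 in M1 and M2. The summed level of the epithelial markers was 15.13 and 15.37 in E1 and E2, against 14.32 and 14.62 in M1 and M2, and that of the mesenchymal markers 14.69 and 14.32 in E1 and E2, against 15.29 and 15.21 in M1 and M2.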

How the data were processed

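RNA of 4 clonal lines was measured on Affymetrix MoGene 1.0 ST arrays, 1 per line. The deposited values are log2 levels that the authors normalized from exported array files; the labels name Partek without a version, and background correction, normalization and summarization are not given in the sources used here. RNA was prepared with a column kit according to the methods and with Trizol according to the labels. E was compared with M, and M1 with E1, E2 and M2, with limma 3.58.1 (lmFit and eBayes) in R 4.3.3, with 2 residual degrees of freedom each. The lone M1 is assumed to vary like the other lines. P-values were adjusted by the method of Benjamini and Hochberg over the 23410 probe sets with a symbol, without a filter or rescaling. Symbols of the 9 genes matched the RefSeq table through their gene identifiers. Promoters come from RefSeq (GRCm38.p6).

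The genes and lists were chosen with earlier results of these data known, and no set test was run. Named are the 9 genes, the other desmosome genes, genes of each list with a level above 9 in some line and a log2 difference of at least 1 (up to 4 per direction), markers, and the 5 nearest patterns. A few others, named for contrast, such as Lor, Krt8, Dst, Macf1 and Eppk1, were named after their values were seen. The fits were tested on simulated data. For the M1 comparison the simulated E1, E2 and M2 held no difference between types, unlike the data, so that test does not cover this limit. The tumor, flow cytometry and PCR experiments were not analysed here.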

Additional observations from a re-analysis of the deposited data

How the results depend on the processing

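The directions of Dsg2, Dsc2, Jup, Pkp1, Pkp2, Pkp3, Dsp and Ppl between E and M were kept under every alternative run. Evpl, near 0, changed sign without E2 and without M1 (-0.04), and it ranged from -0.090 to 0.11 over the lines left out. With values below the median raised to it, limma called 2 of the 9 genes (Dsg2 and Dsp), 223 of all probe sets and 5 of the partner genes. E and M share clone numbers, which were taken as names of clones. The deviations of same-numbered clones had r = -0.04 across probe sets. With 1 array per line, this value cannot tell whether same-numbered arrays shared any handling, which was not tested. With the number as a replicate block, 2 of the 9 genes, 319 of all probe sets and 9 partner genes were called, against 6, 874 and 18 without it. Leaving out 1 line at a time gave 0 to 6 calls among the 9 genes, 0 to 1879 among all probe sets and 0 to 25 among the partner genes, and a median of the 9 genes from 1.75 to 1.93. The 0 calls came without E1 and without E2, and the cause was not tested. A threshold of 0.1 called 1660 probe sets, and 2278 differed by at least 1 on the log2 scale.

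For M1 against the other lines, 22 probe sets were called; median centring gave 40, bright probe sets alone 0, the raised floor 293, all probe sets of the file 11 and a variance trend 62. Leaving out a line gave 0 to 1879 calls among all probe sets and 0 to 6 among the 9 genes, the higher number without M2, and a median of the 9 genes from -1.75 to -0.70. Pkp1, at -0.00, was at 0.032 with median centring, at 0.13 and 0.34 without E1 and without E2, and at -0.48 without M2. With median centring, 1 gene, Pkp1, reached a 2-fold difference between the M clones. The number of arrays limits every value.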
